A study of Mus musculus with 26 samples.

Results

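A group of 36 genes was read in WT mouse embryonic fibroblasts (MEFs) and had a rounded count of 0 in both libraries of cells labelled ATRX KD. The genes were chosen by their RNA-Seq values. Each had a rounded estimated count of 50 or more in both WT libraries and of 0 in both ATRX KD libraries. This held for 40 of the 10481 genes with 50 or more counts in both WT libraries (0.382%), out of 53801 gene identifiers in the tables. Some of these were set aside by the rule of the choice and are not described, which left 36 genes. Their counts in WT and ATRX KD are therefore a description and were not tested. The ATRXΔRBR libraries and the CUT&RUN peak lists were not used in the choice.

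ATRX is a chromatin remodeler of the SWI/SNF family. EZH2 is the catalytic subunit of Polycomb repressive complex 2, which methylates histone H3 at lysine 27. The trimethylated form, H3K27me3, is known as a mark of silent developmental genes. MEFs of 3 genotypes, all female, were compared. WT cells carry unaltered ATRX. ATRXΔRBR cells are a CRISPR clone in which the RNA-binding region (RBR) of ATRX was deleted in frame. ATRX KD cells express a short hairpin RNA against ATRX and were selected with puromycin. RNA-Seq of polyadenylated RNA was represented by 6 libraries, 2 for each genotype. CUT&RUN, which releases and sequences the DNA fragments bound by an antibody, was represented by 16 peak lists, 2 for each genotype and target. ATRX was profiled in WT and ATRXΔRBR, and EZH2 and H3K27me3 in all 3 genotypes.

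Summed estimated counts per library lay between 9051753 and 21723638. Of the ATRX KD libraries, 1 was the shallowest and the other the deepest of the 6. Atrx RNA itself was not lower in the libraries labelled ATRX KD. It was at 233 and 141 TPM (a level scaled for gene length and library size) in WT, then 175 and 124 in ATRXΔRBR, with 331 and 512 in ATRX KD. The paper shows a western blot of its knockdown MEFs and describes ATRX protein as acutely depleted, with less DAXX protein. RNA-Seq does not measure protein. The sum of 13 fibroblast markers lay between 7470 and 11900 TPM in the 6 libraries. Of these markers, Thy1 and Lum were at 0 in both WT libraries and Thy1, Dcn and Lum in both ATRX KD libraries. The sum of 6 muscle markers was 58.6 to 70.8 TPM in WT and ATRXΔRBR and 8.51 to 9.40 in ATRX KD. Most of it was Acta2, at 60.53 and 57.15 TPM in WT and 4.73 and 4.77 in ATRX KD. Tagln was at 9.87 and 10.37 TPM in WT and 2.55 and 4.05 in ATRX KD. Des, with 4 and 3 counts in WT and 5 and 5 in ATRX KD, and Myh11, with 1 and 0 against 8 and 13, were not lower. Myod1 and Myog were at 0 in all libraries. The part of such differences in the results was not tested. Single markers also differed in ATRXΔRBR. Acan of cartilage had 25 and 20 counts in WT and Pparg of fat 41 and 24, and both were at 0 in both ATRXΔRBR libraries and called lower (edgeR's quasi-likelihood test, adjusted p = 0.00762 and 0.00551). The fibroblast marker Col3a1 was lower (adjusted p = 0.0226 in edgeR), with 937 and 733 counts in WT against 342 and 472, and it had 4 and 12 in ATRX KD. Fbn1, Des and Pecam1 were higher (adjusted p = 0.0463, 0.0194 and 0.0479 in edgeR), and no other marker of the 8 lists was called. The raw file names give 1 sequencing run for the WT and ATRXΔRBR libraries and none for the ATRX KD libraries, so a run and the knockdown cannot be told apart. In these bulk samples, fewer cells of a type and less RNA per cell cannot be told apart either.

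Promoters from RefSeq are shown for 5 of the genes, as examples of start sites with different peaks. Each runs from 250 bases before to 50 bases after the RefSeq gene start, on the strand of the gene in GRCm38.p6, and the capitals mark CG dinucleotides. Peaks named here lay within 2 kb of the annotated gene start and need not touch the bases shown. Cacna2d1 (chr5:15934441-15934740, plus strand) had EZH2 peaks in WT and ATRXΔRBR and no H3K27me3 peak. Gnai1 (chr5:18360364-18360663, minus strand) had both in WT. Hunk (chr16:90386147-90386446, plus strand) had both in all genotypes. In ATRX KD no peak of Hunk touched the bases shown, nor did its H3K27me3 peaks in ATRXΔRBR. Mgst1 (chr6:138140277-138140576, plus strand) and Trim30a (chr7:104465144-104465443, minus strand) had no peak in any list.
Cacna2d1: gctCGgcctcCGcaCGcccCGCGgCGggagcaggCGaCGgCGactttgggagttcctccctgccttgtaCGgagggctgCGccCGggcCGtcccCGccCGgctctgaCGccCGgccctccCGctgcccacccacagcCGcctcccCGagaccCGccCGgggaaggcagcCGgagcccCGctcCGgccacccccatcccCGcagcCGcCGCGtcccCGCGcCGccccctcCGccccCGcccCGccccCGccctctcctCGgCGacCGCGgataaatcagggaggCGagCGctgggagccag
Gnai1: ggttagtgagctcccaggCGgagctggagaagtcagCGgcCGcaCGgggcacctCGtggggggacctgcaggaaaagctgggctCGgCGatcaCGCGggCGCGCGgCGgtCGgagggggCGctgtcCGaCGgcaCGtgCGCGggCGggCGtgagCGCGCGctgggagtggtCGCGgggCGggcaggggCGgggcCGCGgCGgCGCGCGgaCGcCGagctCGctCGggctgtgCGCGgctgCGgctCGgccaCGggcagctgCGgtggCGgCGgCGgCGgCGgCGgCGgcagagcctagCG
Hunk: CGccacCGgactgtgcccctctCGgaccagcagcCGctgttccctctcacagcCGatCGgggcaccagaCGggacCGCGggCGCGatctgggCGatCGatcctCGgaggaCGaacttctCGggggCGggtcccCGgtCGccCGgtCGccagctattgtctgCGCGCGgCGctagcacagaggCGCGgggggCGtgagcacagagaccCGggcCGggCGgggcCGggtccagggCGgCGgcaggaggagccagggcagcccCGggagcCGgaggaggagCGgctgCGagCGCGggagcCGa
Mgst1: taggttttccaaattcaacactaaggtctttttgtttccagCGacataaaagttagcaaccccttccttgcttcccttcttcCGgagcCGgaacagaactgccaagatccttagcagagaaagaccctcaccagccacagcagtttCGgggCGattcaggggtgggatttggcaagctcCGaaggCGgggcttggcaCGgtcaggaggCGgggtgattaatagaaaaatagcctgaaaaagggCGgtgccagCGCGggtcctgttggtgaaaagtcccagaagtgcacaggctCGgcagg
Trim30a: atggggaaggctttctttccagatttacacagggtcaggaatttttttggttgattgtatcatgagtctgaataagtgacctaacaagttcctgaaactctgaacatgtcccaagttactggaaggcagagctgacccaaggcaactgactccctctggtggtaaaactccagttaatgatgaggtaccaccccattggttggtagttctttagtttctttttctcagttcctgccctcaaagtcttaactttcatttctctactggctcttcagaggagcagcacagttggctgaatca
The promoter of Gnai1 held 53 CG, that of Cacna2d1 42, that of Hunk 41, that of Mgst1 13 and that of Trim30a 0. A search for CG reads the same on both strands. Of all 32841 RefSeq promoters of this length in the table, 43.5% held 10 or more, and of the 10506 promoters of genes with 50 or more counts in both WT libraries, 84.3% did. The table held a promoter for 21 of the 36 genes, under 80%, so base composition over the whole group was not compared.

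Apart from Gm22133, at 1017 and 827 TPM in WT, the 36 genes were of moderate to low level in WT. Their median was 5.42 TPM in WT replicate 1 and 6.90 in WT replicate 2, where the median of all genes with 50 or more counts in both WT libraries was 35.0 and 39.5. Counts ran from 50 to 970 in WT replicate 1, with a median of 95.5, and from 50 to 1110 in WT replicate 2, with a median of 92.5. In ATRXΔRBR the medians were 25 and 31.5 counts. In ATRX KD every estimate was exactly 0 for 35 of the genes, and for Gm44502 the larger was 0.01. A count of 0 allows up to 3 counts over both ATRX KD libraries together, and against this limit the genes were at least 40.7-fold to at least 847-fold lower in ATRX KD than in WT, for counting error only.

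**Figure D1:**
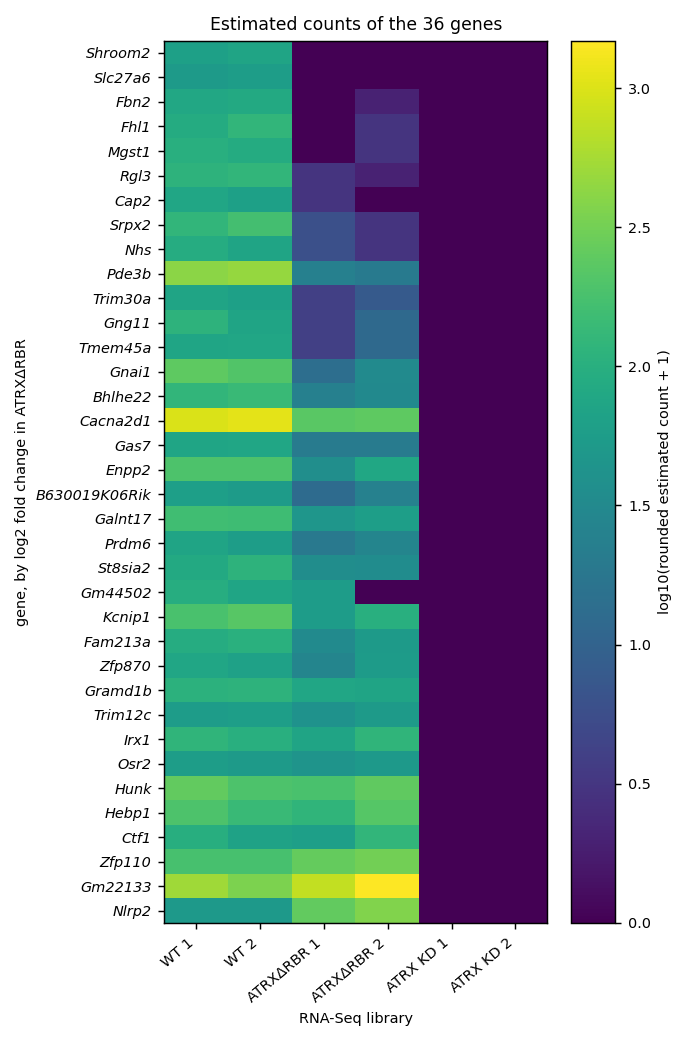
Rounded estimated counts of the 36 genes in each RNA-Seq library, as log10(count + 1) by colour, with 1 column for each library and the genes ordered by their log2 fold change in ATRXΔRBR. The ATRX KD columns are at 0 by the choice of the genes, and the ATRXΔRBR columns run from 0 for Shroom2 and Slc27a6 to above WT for Nlrp2.

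At the edge of the choice, Nlrp2 had 50 counts in both WT libraries, Osr2 had 57 and 53, and Slc27a6 had 53 and 57. Just outside the WT limit stood Klf12 with 45 and 90 counts, 2900076A07Rik with 68 and 45, and Gm33051 with 49 and 75, all at 0 in both ATRX KD libraries. Just outside the ATRX KD limit stood Igsf10, with 219 and 420 counts in WT and 0 and 1 in ATRX KD. Ifi202b had 339 and 474 in WT and 0 and 1 in ATRX KD, and Hs6st2 had 1317 and 1096 in WT and 1 in each ATRX KD library. With at most 1 count allowed in each ATRX KD library, the group would hold 47 genes.

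The genes were spread over 13 chromosomes. There were 8 on chromosome 7 (22.2%) and 5 on the X chromosome (13.9%), where 6.74% and 3.32% of the genes with 50 or more counts in both WT libraries lay. The 5 on the X chromosome were Srpx2, Fhl1, B630019K06Rik, Shroom2 and Nhs. Pairs within 500 kb of each other were Trim12c with Trim30a, 55.7 kb apart, and Fbn2 with Slc27a6, 346 kb apart. Of the 72 nearest neighbours with 50 or more counts in both WT libraries, 1 on each side of each gene, 68 had counts in both ATRX KD libraries and 60 had 50 or more in both. The neighbours without counts were the genes of the pairs named above. Some with counts were far below WT, such as Clmp with 1026 and 782 counts in WT and 3 and 11 in ATRX KD. Of all genes with 50 or more counts in both WT libraries, only 0.382% had no count in either ATRX KD library. Neighbours with counts would thus be found beside almost any gene, and no pattern is read from them. The chosen genes were long, with a median span of 58.5 kb, against 24.7 kb for all genes with 50 or more counts in both WT libraries.

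Reads of 2 of the 36 could belong to genes that overlap them on the same strand with more than a few counts. Overlaps of Hebp1 and Nlrp2 on the opposite strand are given with those genes. Gm22133, an annotated miRNA, lies within Ftl1 on the same strand. Ftl1, the light chain of the iron store ferritin, had 1816 and 1193 counts in WT, then 2295 and 5002 in ATRXΔRBR, with 16 and 44 in ATRX KD. Gm44502 overlaps Cpt1b and Chkb on the same strand, and both of these were read in all ATRX KD libraries. Values of Gm22133 and Gm44502 are therefore uncertain.

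The next question was whether these genes were also lower in ATRXΔRBR cells, whose libraries had no part in the choice. The RNA of 22 of the 36 was lower than in WT, that of 3 was higher, and 11 did not pass the test (edgeR's quasi-likelihood test, Benjamini-Hochberg adjusted over all 16290 genes tested, adjusted p under 0.05). Over all genes tested, 4.08% were called lower and 2.79% higher. Among genes with 50 or more counts in both WT libraries, 4.03% were called lower and 2.68% higher. The median log2 fold change of the 36 was -1.63, with quartiles of -4.27 and -0.38, where the median of all genes tested was -0.016. With Shroom2 and Slc27a6 set to their limits of detection the median of the 36 was again -1.63. Both limits lie below that median, so this step could not move it. In TPM, both ATRXΔRBR libraries lay below both WT libraries for 25 of the 36, as they did for 21.3% of the genes with 50 or more counts in both WT libraries. For 4 of the 36 they lay above and for 7 the groups overlapped. The shares of all genes with these patterns were not counted, so nothing is read from these 2 counts.

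These counts have limits that come from the design. The WT libraries that were required to be high for the choice were also the WT side of this comparison, and a gene at 0 in ATRXΔRBR could enter the test through WT alone. With at least 10 counts required in every library, 23 members could be tested, of which 10 were lower and 2 higher, with a median log2 fold change of -1.10. This filter leaves out members for having few counts in ATRXΔRBR, such as Shroom2 and Slc27a6. Its smaller count and median are therefore not independent of the outcome. Genes of low level were called more often in general. Among the other genes with a mean under 10 TPM in WT, 11.9% were called lower, and among the 26 members under that level 16 were (61.5%). This limit of 10 TPM was set after the data were seen. The libraries of a genotype were described as biological replicates, but ATRXΔRBR was a clone, so that clonal differences and the deletion cannot be told apart.

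**Figure D2:**
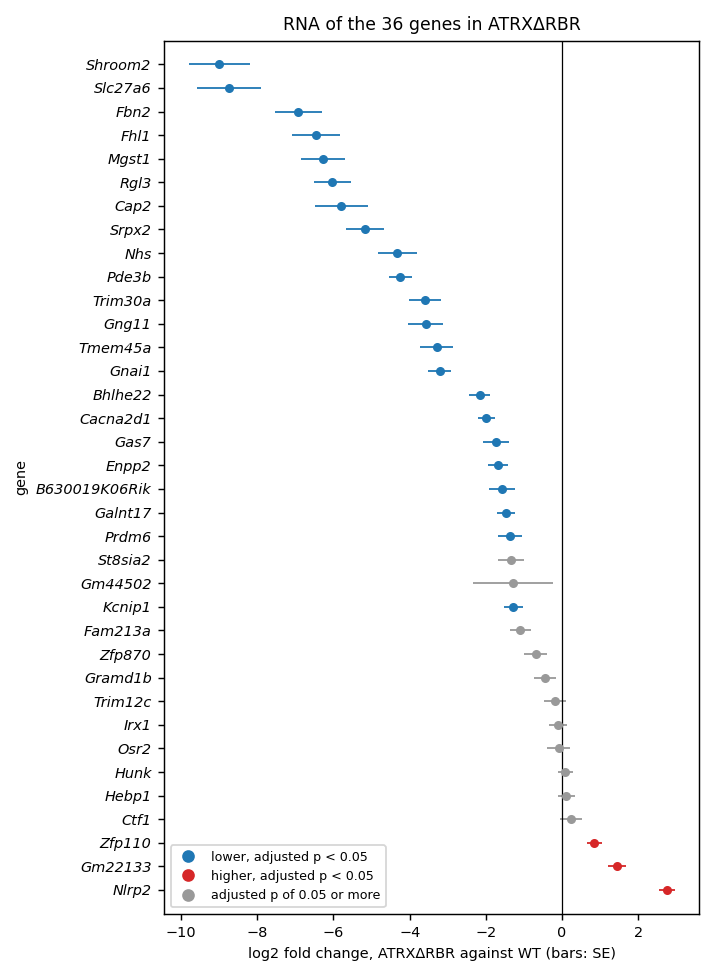
Log2 fold change of each of the 36 genes in ATRXΔRBR against WT from edgeR, with bars of 1 SE, from 2 libraries of each genotype. Blue genes were called lower (22), red genes higher (3), and grey genes did not pass an adjusted p of 0.05 (11). The values of Shroom2 and Slc27a6, at 0 in both ATRXΔRBR libraries, depend on the prior count of the fit.

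Cacna2d1 encodes the alpha2delta-1 subunit of voltage-gated calcium channels, an auxiliary protein that aids channel trafficking to the cell surface and binds gabapentin. It had the most counts of the 36 in WT, 970 and 1110, with 230 and 244 in ATRXΔRBR and 0 in both libraries of ATRX KD. The 0 in ATRX KD was set by the choice of the genes, while both ATRXΔRBR libraries lay below both WT libraries. Its level was 28.6 ± 6.89 TPM in WT and 7.77 ± 1.51 TPM in ATRXΔRBR (SD, n = 2 each). In ATRXΔRBR it was 3.97-fold lower (log2 fold change -1.99 ± 0.23 SE, edgeR adjusted p = 0.00225). The gene lies on chromosome 5 from 15934691 to 16374511 on the plus strand of GRCm38, where 3 overlapping genes had at most 1 count in any library.

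Of 26 genes of voltage-gated calcium channel subunits, 11 had enough counts to be tested in ATRXΔRBR. Among them 3 were lower, 2 were higher and 6 did not pass the test, with a median log2 fold change of 0.09. Of all genes tested, 4.08% were lower and 2.79% higher. Cacna1c, a pore-forming subunit of L-type channels, had 100 and 132 counts in WT, then 22 and 28 in ATRXΔRBR, with 3 and 12 in ATRX KD. It was lower in ATRXΔRBR (log2 fold change -2.10 ± 0.32 SE, edgeR adjusted p = 0.00734). Cacng7, a gamma subunit, had 298 and 237 counts in WT, then 34 and 51 in ATRXΔRBR, with 48 and 116 in ATRX KD, and was lower in ATRXΔRBR too (-2.54 ± 0.23 SE, edgeR adjusted p = 0.000829). Cacna1g, a T-type pore subunit, went the other way, with 334 and 357 counts in WT against 542 and 721 in ATRXΔRBR (0.99 ± 0.18 SE, edgeR adjusted p = 0.0179). Cacnb3, a beta subunit, had 699 and 716 counts in WT against 911 and 1445 in ATRXΔRBR (0.83 ± 0.18 SE, edgeR adjusted p = 0.029). Both had counts in ATRX KD, 65 and 181 for Cacna1g and 372 and 794 for Cacnb3. Cacna2d1 was the only subunit gene with 50 or more counts in both WT libraries that was at 0 in ATRX KD. Its close relatives Cacna2d2, Cacna2d3 and Cacna2d4 had at most 1 count in any library.

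**Figure D3:**
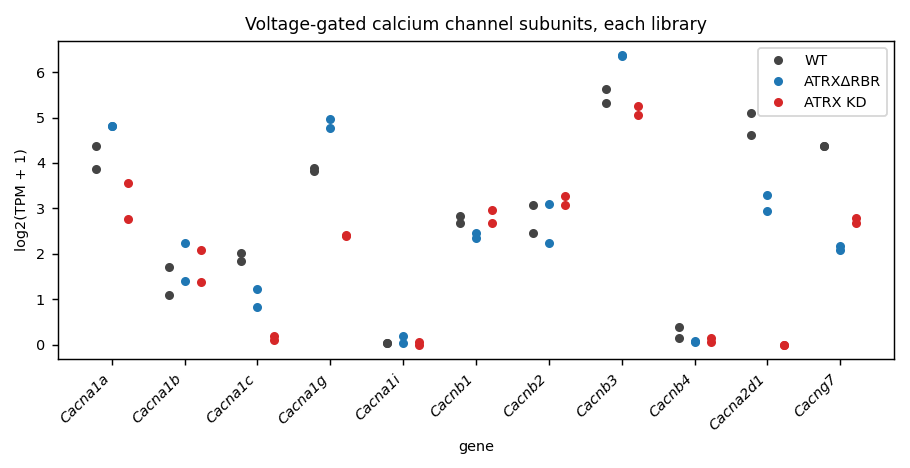
Levels of the 11 tested genes of voltage-gated calcium channel subunits as log2(TPM + 1), with 1 point for each library (2 WT, 2 ATRXΔRBR and 2 ATRX KD). Cacna2d1 is lower in ATRXΔRBR than in WT, and is at 0 in ATRX KD by the choice of the genes. Cacna1g and Cacnb3 are highest in ATRXΔRBR.

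Members are described next by what their products do, in groups that were formed only to order the text, with the results known. Of 9 genes of signalling, including Cacna2d1, 7 were lower in ATRXΔRBR. Pde3b, a phosphodiesterase that hydrolyses cyclic AMP, had 411 and 468 counts in WT against 23 and 19 in ATRXΔRBR. It was 18.9-fold lower (log2 fold change -4.24 ± 0.30 SE, edgeR adjusted p = 0.000408). Gnai1, the alpha subunit of an inhibitory G protein, had 243 and 202 counts in WT against 13 and 32 in ATRXΔRBR (-3.21 ± 0.30 SE, edgeR adjusted p = 0.000912). Gng11, a G protein gamma subunit, had 111 and 70 counts in WT against 3 and 11 in ATRXΔRBR (-3.58 ± 0.46 SE, edgeR adjusted p = 0.00346). In these 3 genes the ATRXΔRBR libraries were well below both WT libraries.

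Kcnip1, a calcium-binding partner of potassium channels, had 180 and 222 counts in WT against 56 and 100 in ATRXΔRBR, a smaller drop (-1.28 ± 0.25 SE, edgeR adjusted p = 0.0221). Rgl3, an exchange factor for Ral GTPases, was nearly silent, with 110 and 120 counts in WT against 2 and 1 in ATRXΔRBR. That is a ratio of 70.9, with an exact 95% interval of 23.9 to 346 for counting error only. Hunk, a protein kinase, did not pass the test, with 252 and 193 counts in WT against 182 and 251 in ATRXΔRBR (0.085 ± 0.20 SE, edgeR adjusted p = 0.866). Ctf1, the cytokine cardiotrophin 1, had 97 and 67 counts in WT against 61 and 120 in ATRXΔRBR, and did not pass the test either. In TPM, the ATRXΔRBR libraries overlapped with WT for Hunk and lay above WT for Ctf1.

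All 5 genes of the actin cytoskeleton and cell shape were lower in ATRXΔRBR. Shroom2, an actin-binding protein, had 63 and 69 counts in WT against 0 and 0 in ATRXΔRBR, and was at least 40.7-fold lower against 3 counts over both libraries. Fhl1, a LIM domain protein of muscle and other cells, had 89 and 120 counts in WT against 0 and 2 in ATRXΔRBR. Its ratio was 96.6, with an exact 95% interval of 26.4 to 803. Cap2, a cyclase-associated regulator of actin, had 74 and 63 counts in WT against 2 and 0 in ATRXΔRBR, a ratio of 63.3 (exact 95% interval 17.2 to 528). Nhs, an actin regulator, had 91 and 70 counts in WT against 5 and 2 in ATRXΔRBR (log2 fold change -4.33 ± 0.51 SE, edgeR adjusted p = 0.00252). These 4 genes were thus at or close to 0 in ATRXΔRBR as well, and Gas7 was lower with 20 counts left in each ATRXΔRBR library.

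Of 5 genes of metabolism and lipid transport, 2 were lower. Slc27a6, a fatty acid transport protein, had 53 and 57 counts in WT against 0 and 0 in ATRXΔRBR, at least 33.9-fold lower. Mgst1, a membrane-bound glutathione transferase, had 99 and 87 counts in WT against 0 and 2 in ATRXΔRBR, a ratio of 86.0 (exact 95% interval 23.5 to 715). Hebp1, a heme-binding protein, did not pass the test, with 189 and 139 counts in WT against 118 and 214 in ATRXΔRBR (log2 fold change 0.11 ± 0.23 SE, edgeR adjusted p = 0.838). Fam234b, which overlaps Hebp1 on the opposite strand, had 111 and 343 counts in ATRX KD. Fam213a, a redox protein also named Prxl2a, had 91 and 103 counts in WT against 32 and 53 in ATRXΔRBR and did not pass the test (-1.09 ± 0.28 SE, edgeR adjusted p = 0.0592).

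Fbn2 and Srpx2, secreted proteins that were not counted with signalling as Ctf1 and Enpp2 were, were lower. Fbn2, the microfibril protein fibrillin-2, had 78 and 83 counts in WT against 0 and 1 in ATRXΔRBR, a ratio of 149 (exact 95% interval 26.3 to 5910). Srpx2, a sushi-repeat protein, had 122 and 164 counts in WT against 5 and 2 in ATRXΔRBR (log2 fold change -5.18 ± 0.50 SE, edgeR adjusted p = 0.00107). In a list of 42 secreted matrix proteins and small leucine-rich proteoglycans, 32 could be tested, of which 4 were lower, 4 were higher and 24 did not pass. The lower ones were Fbln5, Thbs1, Nid2 and Fbn2, and the higher ones Aspn, Spon2, Matn2 and Fbn1. Fbn2 and its relative Fbn1 thus moved in opposite directions in ATRXΔRBR. Of all genes tested, 4.08% were lower and 2.79% higher. St8sia2, which builds polysialic acid chains, had 83 and 110 counts in WT against 35 and 34 in ATRXΔRBR and just missed the threshold (-1.34 ± 0.34 SE, edgeR adjusted p = 0.0562). It passed with the replicate number as a block (-1.34), with no filter (-1.36), with all 6 libraries in a single fit (-1.34), and without WT replicate 1 (-1.58) or ATRXΔRBR replicate 1 (-1.64).

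Of 6 transcription factors and zinc finger proteins, 2 were lower, 1 was higher and 3 did not pass the test. Bhlhe22, a basic helix-loop-helix factor of neurons, had 122 and 141 counts in WT against 23 and 31 in ATRXΔRBR (log2 fold change -2.17 ± 0.28 SE, edgeR adjusted p = 0.00397). Prdm6, a PR domain factor of smooth muscle, had 69 and 57 counts in WT against 18 and 27 in ATRXΔRBR (-1.37 ± 0.31 SE, edgeR adjusted p = 0.0411). The call of Prdm6 was lost under DESeq2 and without WT replicate 1 (log2 fold change -1.29), ATRXΔRBR replicate 1 (-1.34) or ATRXΔRBR replicate 2 (-1.38). Irx1, an Iroquois homeobox factor, had 118 and 98 counts in WT against 69 and 119 in ATRXΔRBR, and Osr2, an odd-skipped related factor, had 57 and 53 in WT and 43 and 51 in ATRXΔRBR. Their groups overlapped in TPM (edgeR adjusted p = 0.867 and 0.905). Zfp110, a zinc finger protein, had 176 counts in each WT library against 260 and 316 in ATRXΔRBR, and was higher (0.84 ± 0.20 SE, edgeR adjusted p = 0.0461). Its call was lost without WT replicate 1 (0.79) or ATRXΔRBR replicate 1 (0.71). In a list of 84 developmental transcription factors, which holds Irx1 and Osr2, 54 could be tested, with 9 lower, 5 higher and 40 that did not pass. Of all genes tested, 4.08% were lower and 2.79% higher.

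Of 3 genes of innate immunity, 1 was lower and 1 was higher. Nlrp2, a NOD-like receptor, went furthest up of the 36. It had 50 counts in each WT library, 258 and 366 in ATRXΔRBR and 0 in ATRX KD, and was 6.74-fold higher in ATRXΔRBR (log2 fold change 2.75 ± 0.21 SE, edgeR adjusted p = 0.00054). The pseudogene Gm18757, which overlaps Nlrp2 on the opposite strand, had 5 and 3 counts in WT against 42 and 37 in ATRXΔRBR. Trim30a, a tripartite motif protein induced in immune responses, had 69 and 63 counts in WT against 3 and 7 in ATRXΔRBR (-3.59 ± 0.41 SE, edgeR adjusted p = 0.00231). Its neighbour Trim12c had 55 and 59 counts in WT against 40 and 52 in ATRXΔRBR, and the TPM of the groups overlapped (-0.19 ± 0.29 SE, edgeR adjusted p = 0.78). These genes belong to families of similar sequence, so reads could have been split between copies.

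Enpp2, Gas7, Tmem45a, Galnt17 and B630019K06Rik were lower in ATRXΔRBR, with log2 fold changes between -3.29 for Tmem45a and -1.48 for Galnt17. The call of Gas7 was lost without ATRXΔRBR replicate 2 (-1.46), and that of B630019K06Rik without ATRXΔRBR replicate 1 (-1.38) and under DESeq2 (-1.58). Zfp870 and Gramd1b did not pass the test, nor did Gm44502, which had 94 and 73 counts in WT against 55 and 0 in ATRXΔRBR. Gm22133 was called higher, with 526 and 351 counts in WT against 761 and 1478 in ATRXΔRBR.

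To ask whether the start sites of these genes carried Polycomb, peaks within 2 kb of the transcription start site (TSS) were counted in the lists of each target. H3K27me3 peaks lay at the TSS of 17 of the 36 genes in both WT lists (47.2%), and at 3.58% of the 10431 other genes with 50 or more counts in both WT libraries. Among other genes with a mean under 10 TPM the share was 10.9%, and of the 26 members of that level 13 had one. In ATRXΔRBR, 10 of the 36 had an H3K27me3 peak at the TSS in both lists (27.8%), against 5.25% of the other genes and 13.6% of those under 10 TPM. In ATRX KD, 6 of the 36 did (16.7%), against 1.26% and 3.96%. So the group held genes with H3K27me3 at their start sites already in WT, where their RNA was read.

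The lists themselves differed in size. The H3K27me3 lists held 36011 and 38832 peaks in WT, then 38651 and 33105 in ATRXΔRBR, with 7241 and 6336 in ATRX KD, where they covered 6.37 and 5.60 Mb in place of 103 and 118 Mb in WT. The EZH2 lists of ATRX KD, with 5376 and 7093 peaks, were also shorter than those of WT, with 22316 and 18351. Depth cannot be read from these lists, so fewer TSS peaks in ATRX KD and a shallower list cannot be told apart.

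EZH2 peaks were at the TSS of 18 of the 36 genes in both WT lists, 13 in ATRXΔRBR (36.1%) and 8 in ATRX KD (22.2%). The shares of the other genes were 73.7%, 55.5% and 26.0%. Among other genes under 10 TPM they were 64.7%, 47.1% and 23.8%. Of the 26 members under 10 TPM, 57.7%, 42.3% and 30.8% had one. EZH2 peaks were thus at a smaller share of these start sites than of others in WT and ATRXΔRBR, while in ATRX KD the order turned among genes under 10 TPM. H3K27me3 peaks were at a larger share of these start sites in all 3 genotypes. No test was run on the shares.

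**Figure D4:**
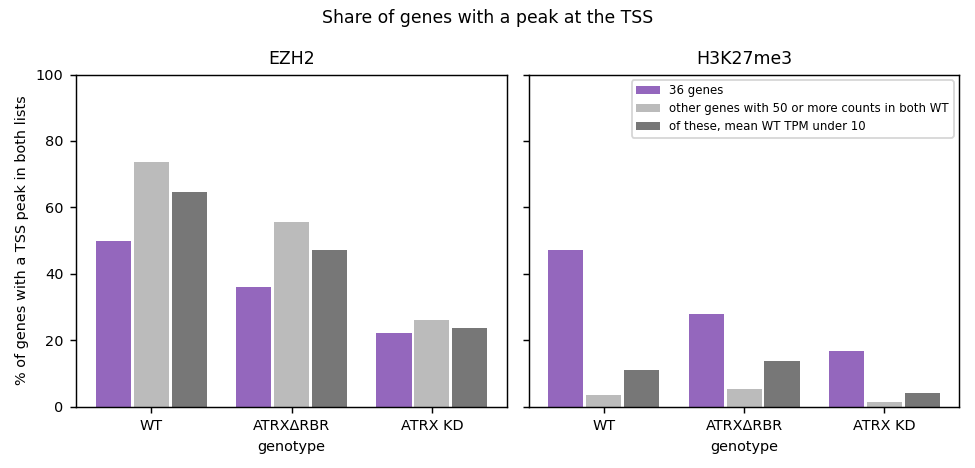
Percent of genes with an EZH2 peak (left) or an H3K27me3 peak (right) within 2 kb of the TSS in both lists of a genotype, for the 36 genes, the 10431 other genes with 50 or more counts in both WT libraries, and the 1517 of these with a mean under 10 TPM in WT. For H3K27me3 the bar of the 36 genes is above the other bars in each genotype (47.2%, 27.8% and 16.7%).

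ATRX peaks were at the TSS of a single member, Gm44502, in both WT lists (2.78%), and a further peak there in ATRXΔRBR replicate 1. Of the other genes, 6.87% had one in both WT lists and 5.84% in both ATRXΔRBR lists. Over the gene bodies, 5 members had an ATRX peak in both WT lists, namely Enpp2, Galnt17, Gramd1b, Gm44502 and Gas7 (13.9%), as had 1146 of the 10431 other genes. Among genes of at least the median length of the 36, 4 of 18 members (22.2%) and 24.5% of the other genes had one. Gramd1b had one in both ATRXΔRBR lists (2.78%, against 9.46%).

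No member had H3K27me3 at its TSS in both ATRX KD lists and neither WT list, a pattern shown by 0.336% of the other genes. Srpx2 and Zfp110 had a peak in ATRX KD replicate 1 and none in WT, so that 2 of the 36 (5.56%) had one in at least 1 ATRX KD list and neither WT list, against 0.815% of the other genes. Genes with H3K27me3 at the TSS in both ATRX KD lists were Pde3b, Hunk, Bhlhe22, Osr2, Prdm6 and St8sia2. Of these, all but St8sia2 had it in every list of each genotype, and St8sia2 in WT replicate 2 and ATRXΔRBR replicate 1 as well. Hunk, Bhlhe22, Osr2 and Prdm6 also had EZH2 at the TSS in all 6 lists. The RNA of Bhlhe22 and Prdm6 was lower in ATRXΔRBR, and that of Hunk and Osr2 did not pass the test. A peak in each list does not mean equal extent. At Bhlhe22 the H3K27me3 peaks were 9923 and 14609 bp wide in WT and 1616 and 2600 bp in ATRXΔRBR. They covered 100% of the gene in both WT lists and 0% in both ATRXΔRBR lists.

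**Figure D5:**
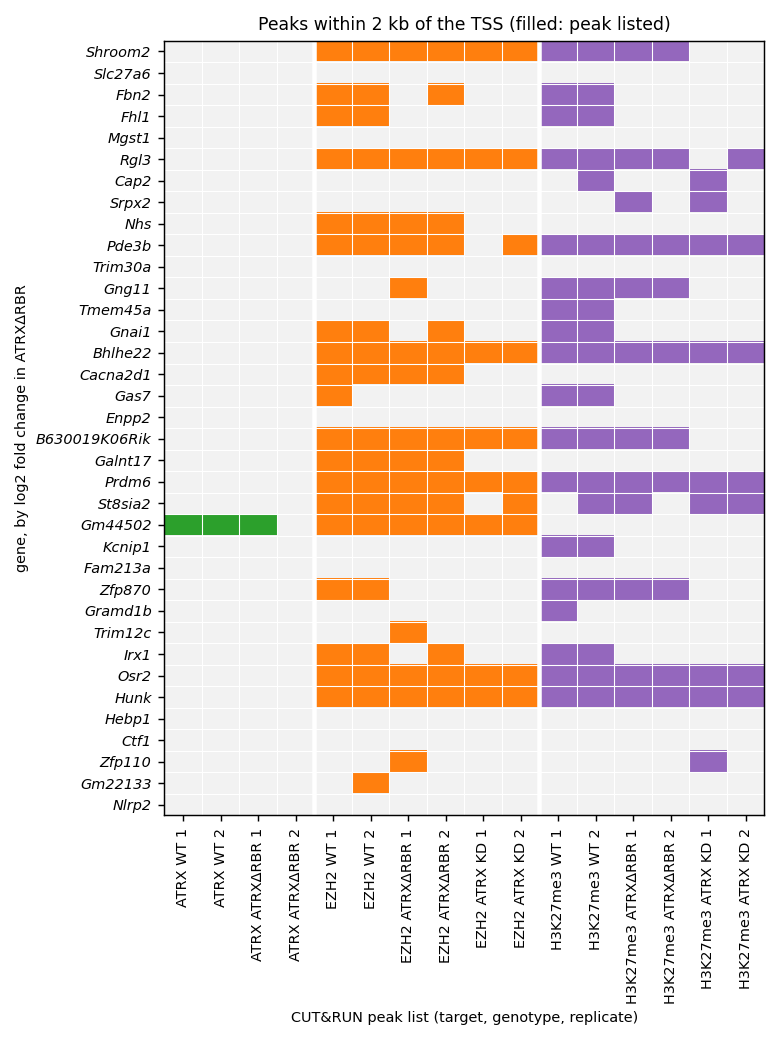
Peaks within 2 kb of the TSS of each of the 36 genes in the 16 CUT&RUN lists, with 1 column for each list (green for ATRX, orange for EZH2, purple for H3K27me3) and the genes ordered by their log2 fold change in ATRXΔRBR. Filled cells mark a listed peak, and 8 genes have none in any list.

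Of the 17 genes with H3K27me3 at the TSS in both WT lists, 7 (41.2%) had it in neither ATRXΔRBR list, as had 104 of the 373 other genes with it in both WT lists (27.9%). These were Kcnip1, Gnai1, Irx1, Fhl1, Tmem45a, Gas7 and Fbn2. All but Irx1 were called lower in ATRXΔRBR, and of the 10 members with the peak in both ATRXΔRBR lists 7 were. Among the other genes 26.0% of those without the peak and 22.3% of those with it in both lists were called lower. The peak within 2 kb of the TSS was absent in ATRXΔRBR for these 7 members, while cover of the gene bodies differed between them. H3K27me3 peaks covered 14.9% and 18.8% of Tmem45a in WT and 24.6% and 26.9% in ATRXΔRBR. For Kcnip1 the cover was 2.26% and 3.24%, then 3.71% and 2.61%, and for Fbn2 1.98% and 1.60%, then 0.947% and 0.352%. Gnai1, Fhl1 and Gas7 had 0% in both ATRXΔRBR lists. For Irx1, H3K27me3 peaks covered 100% of the gene in both WT lists and 0% in all ATRXΔRBR and ATRX KD lists. The counts of Irx1 were 118 and 98 in WT and 69 and 119 in ATRXΔRBR. Gnai1 had EZH2 at the TSS in WT (both lists) and in ATRXΔRBR replicate 2, at the promoter printed above, and neither EZH2 nor H3K27me3 there in ATRX KD.

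Pde3b had more H3K27me3 cover in ATRXΔRBR than in WT. H3K27me3 peaks covered 1.54% and 2.01% of its 124 kb gene in WT and 84.1% and 74.9% in ATRXΔRBR, where its RNA was 18.9-fold lower. In ATRX KD, without any read of Pde3b, they covered 0.269% and 1.55%. Cover of at least 50% in both ATRXΔRBR lists and below 5% in both WT lists, limits set after these values were seen, was found in 0.153% of the other genes. Rgl3 had 18.1% and 20.8% of its length covered in WT, 46.5% and 41.1% in ATRXΔRBR, but 0% and 4.89% in ATRX KD. Osr2 had 0% covered in both WT lists and 41.0% and 41.2% in ATRXΔRBR. Its RNA did not pass the test there (log2 fold change -0.09, edgeR adjusted p = 0.905). Shroom2 kept EZH2 at the TSS in all 6 lists and H3K27me3 in the WT and ATRXΔRBR lists, and was at 0 counts in ATRXΔRBR and ATRX KD alike.

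Cacna2d1 had no H3K27me3 peak at its TSS or in its body in any list. EZH2 peaks lay at its TSS in both WT lists, at chr5:15934290-15936027 with a fold enrichment of 4.92 in replicate 1 and at chr5:15934398-15935996 with 4.01 in replicate 2. In ATRXΔRBR they lay at chr5:15934324-15934486 with 4.68 and at chr5:15934739-15935996 with 4.16. Neither ATRX KD list had one. The WT peaks covered the whole promoter printed above. EZH2 in both WT lists and neither ATRX KD list was found for 8 of the 36 genes, as for 3134 of the 10431 other genes.

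No peak of any target lay at the TSS of 8 of the 36 genes (22.2%), against 9.08% of the other genes. They were Hebp1, Mgst1, Fam213a, Ctf1, Enpp2, Nlrp2, Slc27a6 and Trim30a. Of these 8, 4 were lower in ATRXΔRBR, with a median log2 fold change of -1.38. Of the 17 genes with H3K27me3 in both WT lists 13 were lower, with a median of -2.17, and of the 16 with it in neither WT list 8 were lower, with a median of -1.38. Other genes with H3K27me3 in both WT lists were also called lower more often than the 4.03% of all genes with 50 or more counts in both WT libraries. The shares were 26.0%, 16.1% and 22.3% for those with it in neither, 1 or both ATRXΔRBR lists. For the other classes of peaks no such share was counted. Both kinds of gene thus held members that were lower in ATRXΔRBR, and all of them were at 0 in ATRX KD by choice.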

How the data were processed

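The authors mapped CUT&RUN reads to mm10 with Bowtie2 and called broad peaks in each library with MACS2. The deposited fold enrichment is a ratio to local background, and the deposited −log10 p-value and −log10 q-value of a peak are those of MACS2. The deposited score column was not used. RNA-Seq reads were aligned by the authors (STAR), and RSEM gave the deposited estimated counts, TPM and FPKM per gene, of which FPKM was not used. The strand setting is not given in the sources used here. Gene length minus effective length had a median of 37 bases in WT and ATRXΔRBR and 36.55 in ATRX KD.

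Estimated counts were rounded. Genes with over 10 counts in total over the 4 WT and ATRXΔRBR libraries were kept, scaled by TMM and tested with edgeR 4.0.16 (R 4.3.3, quasi-likelihood test, Benjamini-Hochberg adjustment, threshold 0.05). The SE is that implied by the test statistic. The fit was checked on simulated counts. Intervals cover counting error only. Peaks counted as at the TSS when at least 1 bp lay within 2 kb of the outermost gene start in GENCODE M21 (GRCm38). Python 3.11.15 and pandas 2.3.3 were used. With 2 libraries in each group, an exact permutation test cannot go below 0.333 and was not used.

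The members and lists were chosen with earlier results of these data known. Named genes were Cacna2d1, the 10 highest members in WT TPM, up to 10 called in each direction in ATRXΔRBR, those with H3K27me3 at the TSS in both ATRX KD lists or ATRX in both WT lists, members of the gene lists, the genes nearest the limits, and members within 500 kb of each other. The remaining 7 were named to account for all. The alternatives were DESeq2 1.42.0, other scaling, filters and pseudocounts, all 6 libraries in a single fit, a replicate block, other limits of the choice, other windows and a stricter q-value, and leaving out each library. Replicate numbers were shared between genotypes, but nothing ties libraries of the same number, and the deviations of WT and ATRXΔRBR replicate 1 from their group means correlated at r = -0.37 across genes. IgG libraries were not analysed here.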

Additional observations from a re-analysis of the deposited data

How the results depend on the processing

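The members called in ATRXΔRBR numbered 25 and lay between 23 and 28 under DESeq2 (23), DESeq2's size factors, no filter (28), all 6 libraries in a single fit (27) and leaving out each library (23 to 26), and were 24 without Gm22133 and Gm44502, an alternative chosen after seeing the data. With at least 10 counts in every library, which leaves out members lowest in ATRXΔRBR, 23 members could be tested and 12 were called. The median log2 fold change was then -1.10 in place of -1.63. The median was -1.08 when computed on mean TPM plus 1 and -1.36 on mean TPM plus 0.1, and -1.82 to -1.60 when leaving out each library. With the replicate block the count was again 25 (23 lower and 2 higher) and the median -1.72. Of the 25 called members, 23 were shared by both fits. With the block Zfp110 and Prdm6 did not pass while St8sia2 and Gm44502 (-2.15) did, and the numbers do not pair the libraries by any source. Prdm6 and B630019K06Rik did not pass under DESeq2. Fam213a passed with no filter (-1.11), all 6 libraries (-1.09) or without WT replicate 1 (-1.23), and Gm44502 with no filter (-1.31) and without WT replicate 2 (-1.41) or ATRXΔRBR replicate 1 (-9.43, where the remaining library is at 0). Of 347 values of single genes under alternatives 317 kept direction and side of the threshold, 12 lost and 12 gained the call. Direction turned in 6, all near 0 and from leaving out a library, in Hebp1 (-0.030 and -0.050, in a range up to 0.29), Hunk (-0.032 to 0.23), Irx1 (-0.22 to 0.016), Ctf1 (-0.00020 to 0.46) and Osr2 (-0.24 to 0.063). The choice of genes gave 63 genes with 20 or more counts in both WT libraries, 14 with 100 or more and 78 with up to 5 counts in each ATRX KD library. It gave 40 to 51 without a WT library and 44 to 54 without an ATRX KD library. With a q-value of 0.01 or less, members with a TSS peak in both lists numbered 0 for ATRX in WT, 8 and 5 for EZH2 in ATRXΔRBR and ATRX KD, and 6 and 2 for H3K27me3 in ATRXΔRBR and ATRX KD. With the midpoint of the peak in the window, 4 had H3K27me3 in ATRXΔRBR. In single lists, members with ATRX in ATRXΔRBR numbered 0 and 1. No other count moved by over 1.5 times.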

Other observations

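Of the 17 genes, Pde3b included, with H3K27me3 cover of at least 50% in both ATRXΔRBR lists and below 5% in both WT lists, 11 were called lower in ATRXΔRBR by edgeR's quasi-likelihood test, with a median log2 fold change of -2.01. These genes were selected after the values of Pde3b were seen, Pde3b is among the 11, and the count is given as a description. Of all genes with 50 or more counts in both WT libraries, 4.03% were called lower.

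Zero counts were also found in the other genotype. Among genes with 50 or more counts in both WT libraries, 14 (0.134%) were at 0 in both ATRXΔRBR libraries, against 40 in both ATRX KD libraries. Dcn, a proteoglycan of fibroblasts, had 19 and 8 counts in WT against 30 and 53 in ATRXΔRBR, and 0 in both ATRX KD libraries, below the limit for the choice.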
